A study of Mus musculus with 6 samples.

Results

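The 10 genes described here handle iron and haem: Fth1 and Ftl1 store iron, Tfrc and Slc11a2 take it up, Slc40a1 exports it, Ireb2 and Aco1 sense it, Alas1 starts haem synthesis, Hmox1 breaks haem down and Mb carries haem in muscle fibres. They were taken by gene name from the deposited table of 55995 features, and all 10 were found once each. RNA-seq gave the levels in gastrocnemius, a mainly fast-twitch muscle of the calf. The mice were NSG, which lack mature T, B and NK cells. All mice, controls included, carried a subcutaneous left-flank tumour of the human breast cancer line MDA-MB-231, labelled WT, injected in Matrigel. For the radiotherapy group (3 libraries) the tumour alone was irradiated once with 10 Gy of 6 MV X-rays at 6 Gy/min when it measured about 800 mm3, and the muscle of the opposite side was collected 3 days later. The control group (3 libraries) is labelled only as control, taken here to mean an unirradiated tumour. The labels give no age or sex for either group and no separate tumour volume or collection day for the controls, so a difference in any of them cannot be told apart from irradiation. The labels do not say that each library came from a separate mouse, so the p-values speak only of the spread among these samples, possibly a technical one. In whole muscle, fewer cells of a type and less RNA per cell cannot be told apart.

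Iron enters most cells bound to transferrin through the transferrin receptor, is stored inside ferritin cages built of heavy and light chains, and leaves through ferroportin, the product of Slc40a1. The iron regulatory proteins, encoded by Aco1 and Ireb2, bind hairpins called iron-responsive elements when iron is scarce. A hairpin in the 5′ untranslated region lowers translation when bound, as in the ferritins and ferroportin, whereas hairpins in the 3′ untranslated region protect the message from decay, as in Tfrc. Through these hairpins Tfrc is regulated at the level of its mRNA, while ferritin mRNA levels need not follow ferritin protein. Skeletal muscle holds much of its iron in myoglobin and in the haem and iron-sulphur proteins of mitochondria.

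The hairpins are shown because they are the sequences through which iron acts on ferritin, ferroportin and Tfrc messages. One transcript per gene, the longest protein-coding one in GENCODE M21 (GRCm38), was searched on the transcript strand for a bulged C, 5 bases, the loop CAGTGN and 5 bases pairing with the first 5, with G-T pairs allowed. Of the 10 genes, 4 held at least 1 match, 7 matches in all. Fth1, Ftl1 and Slc40a1 each had 1 in the 5′ untranslated region, and Tfrc had 4 in the 3′ untranslated region. Among all genes with the region, 0.101% of 20740 held a match in the 5′ and 0.54% of 21667 in the 3′ untranslated region. Capitals mark the bulged C and the loop, and the sequences run 5′ to 3′ with T for U.
Fth1 5′ element, chr19:9982732-9982760, plus strand: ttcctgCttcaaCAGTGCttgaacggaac
Ftl1 5′ element, chr7:45459779-45459807, minus strand: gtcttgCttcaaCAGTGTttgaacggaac
Slc40a1 5′ element, chr1:45925465-45925493, minus strand: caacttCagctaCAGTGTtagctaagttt
Tfrc 3′ element 1, chr16:32631219-32631247, plus strand: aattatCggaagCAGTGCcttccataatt
Tfrc 3′ element 2, chr16:32631598-32631626, plus strand: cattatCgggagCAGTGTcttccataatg
Tfrc 3′ element 3, chr16:32631663-32631691, plus strand: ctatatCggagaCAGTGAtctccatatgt
Tfrc 3′ element 4, chr16:32631710-32631738, plus strand: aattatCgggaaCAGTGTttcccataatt
The ferritin elements shared 26 of 29 bases with each other, against 9 to 13 with any Tfrc element. The Slc40a1 element shared 13 with each ferritin element and 13 to 16 with the Tfrc elements. The bulged C and CAGTG are fixed by the search, so every pair shares them. The Tfrc elements shared 18 to 25 of 29 among themselves. In the wider pathway list, Alas2, the erythroid form of the first haem enzyme, also held 1 in its 5′ untranslated region and Bola3, an iron-sulphur assembly factor, 1 in its 3′ untranslated region. A match is a description of the letters, and no match says only that this pattern is not in the transcript searched. All 5 pairs and the CAGTG loop were required, so an element with another stem or loop would be missed.

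Levels are in TPM, which the authors scaled to transcript length and to a fixed library total, so sequencing depth is unknown. Of the 11938 features averaging 1 TPM or more, 78.5% had a log2 change below 0, and the median log2 change, radiotherapy minus control, was -0.36. The 20 most abundant features of each library took 50.7%, 52.6% and 32.1% of the TPM in radiotherapy replicates 1, 2 and 3, and 33.4% to 42.8% in the controls. Radiotherapy replicate 3 stood apart from replicates 1 and 2: its median log2 difference from the control mean over all features was -0.01, against -0.53 and -0.61 in the other two. Each result below is therefore given by library. Muscle identity was plain in every library, with the 8 fibre markers summing to 90705 to 150408 TPM in radiotherapy and 104394 to 119648 TPM in control muscle.

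None of the 10 genes passed the test over all features, limma with Benjamini-Hochberg adjustment at 0.05 (0 of 10, beside 0.0586% of all features). At an unadjusted p under 0.05, 2 of 10 were lower, Slc40a1 and Alas1, beside 13.3% of all features, and 0 were higher, beside 1.18%. The same 2 genes were the only members whose groups did not overlap, both lower in radiotherapy, beside 19.3% of all features lower and 1.73% higher. These shares lie near the background. In 5 of the 10, radiotherapy replicate 3 lay above all controls and replicates 1 and 2 below all of them. That split, described after the values were seen, was shown by 19.3% of all features.

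Ferritin was high in 1 radiotherapy library and low in the others. Fth1, the heavy chain that oxidises iron for storage, stood at 3298, 2830 and 9514 TPM in radiotherapy replicates 1, 2 and 3, against 4929, 5563 and 4014 TPM in the control libraries. It was the most abundant member and ranked 28th of all tested features by mean level. Radiotherapy replicates 1 and 2 lay below every control and replicate 3 above all of them, at 1.97 times the control mean. Its log2 change was -0.10 (SE 0.46, limma adjusted p = 0.916), turning to 0.33 with median-of-ratios scaling and 0.10 when rescaled without mitochondrial and the 20 most abundant features. Ftl1, the light chain that helps the iron core form, had 239, 255 and 1233 TPM in radiotherapy replicates 1, 2 and 3, against 487, 674 and 408 TPM in controls. The order of libraries was nearly that of Fth1, with replicate 3 at 2.36 times the control mean and replicates 1 and 2 at 0.458 and 0.487 times. Ftl1 had a log2 change of -0.28 (SE 0.64, limma adjusted p = 0.835), and 0.15 with median-of-ratios scaling.

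The heavy chain exceeded the light chain in every library. The ratio of Fth1 to Ftl1 in TPM was 13.8, 11.1 and 7.71 in radiotherapy replicates 1, 2 and 3, and 10.1, 8.25 and 9.85 in controls, so it was lowest in the library richest in both chains. The table also lists 15 other ferritin-like genes and pseudogenes, of which 12 were at 0 in every library and none exceeded 1.74 TPM. How reads shared with these copies were assigned is not stated in the labels. Ncoa4, the receptor that sends ferritin to the lysosome, was at 6.28, 5.75 and 7.35 TPM in radiotherapy and 15.0, 14.3 and 14.1 TPM in control muscle. Its groups did not overlap and radiotherapy replicate 3 was near its own group, unlike the ferritin chains. Ncoa4 had a log2 change of -1.06 (limma unadjusted p = 0.00242, adjusted p = 0.241), the smallest p of the pathway list, and -0.67 with median-of-ratios scaling. Pcbp1, a chaperone that delivers iron to ferritin, was at 52.8, 50.3 and 189.5 TPM in radiotherapy and 116, 175 and 92.4 TPM in controls, the split of the ferritin chains again.

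**Figure D1:**
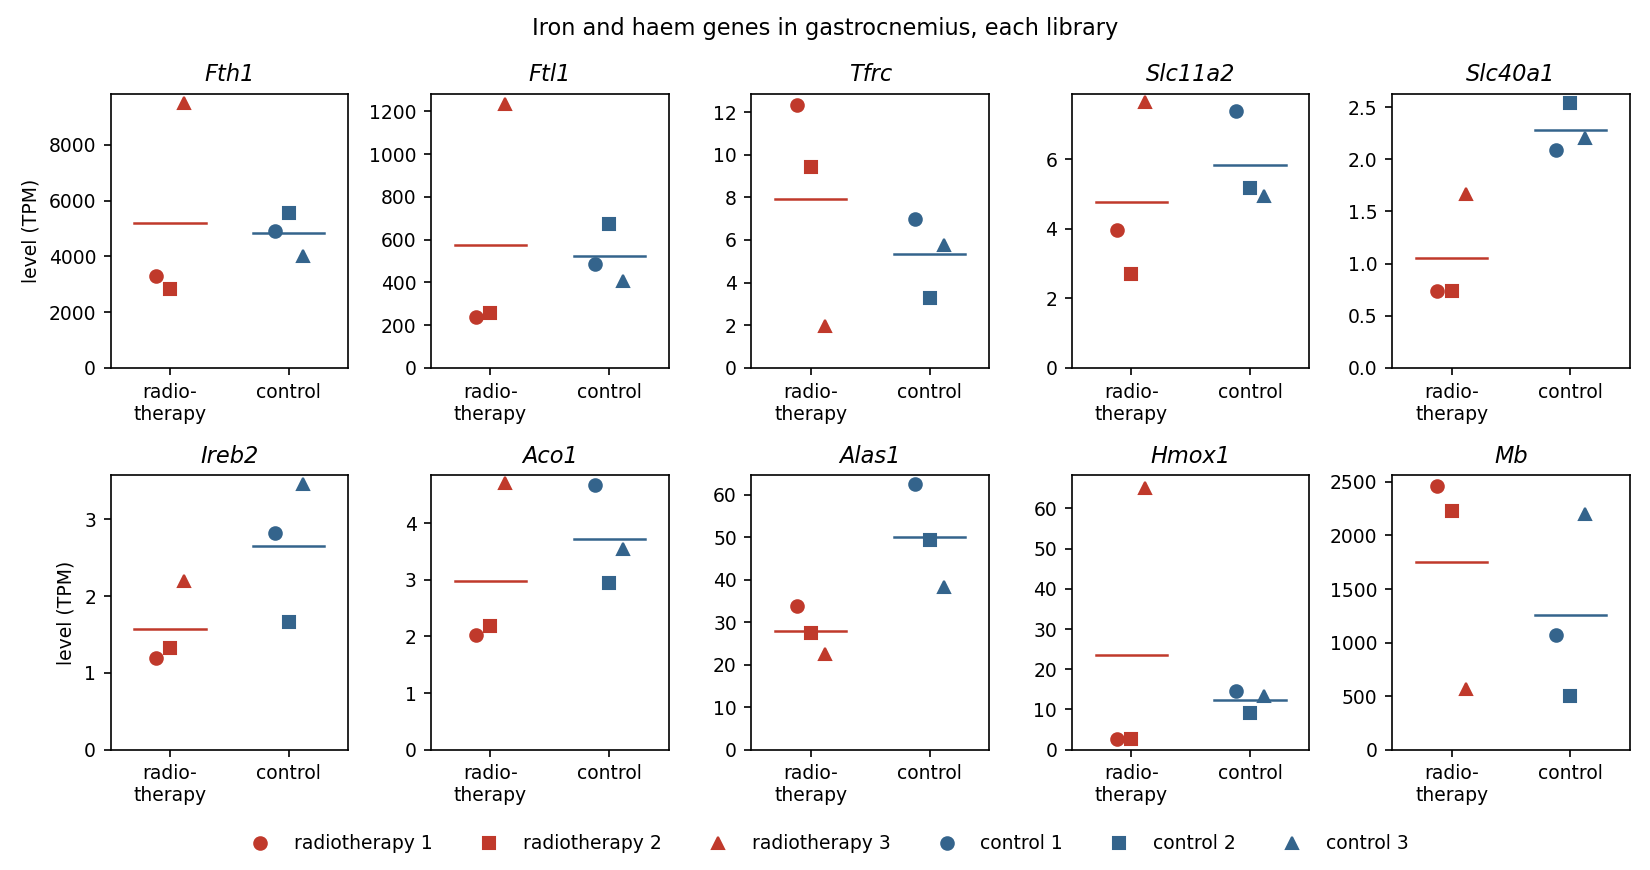
Level in TPM of each of the 10 genes in every library, radiotherapy left and control right, with a line at the group mean and the replicate number shown by the symbol. Radiotherapy replicate 3 (triangle) lies above every control for Fth1, Ftl1, Slc11a2, Aco1 and Hmox1 and below every control for Tfrc, Slc40a1 and Alas1.

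Tfrc ran against the ferritins. Tfrc, the transferrin receptor, had 12.4, 9.41 and 1.95 TPM in radiotherapy replicates 1, 2 and 3, against 6.98, 3.27 and 5.77 TPM in control muscle. Replicates 1 and 2 lay above every control and replicate 3 below every control, a 6.33-fold span from the lowest to the highest library. Its log2 change came to 0.28 (SE 0.59, limma adjusted p = 0.821). On the log2 scale the ratio of Tfrc to Fth1 was -8.06, -8.23 and -12.25 in radiotherapy replicates 1, 2 and 3, and -9.46, -10.73 and -9.44 in controls. A single factor per library leaves that ratio as it is. Its group means differed by 0.36, and by 0.79 after quantile normalisation, which is not such a factor (two-sided exact permutation p = 1 for the deposited TPM, smallest possible 0.1, n = 3 per group). Among controls the library with the most Fth1, replicate 2, also had the least Tfrc.

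Slc11a2, the divalent metal transporter that moves iron out of endosomes, was at 3.98, 2.69 and 7.65 TPM in radiotherapy and 7.39, 5.19 and 4.94 TPM in controls. Replicate 3 lay just above the highest control and the other radiotherapy libraries below the lowest. Its log2 change came to -0.32 (SE 0.36, limma adjusted p = 0.659), and 0.03 with median-of-ratios scaling or quantile normalisation. Of the other uptake genes, Slc39a14, a transporter of zinc and of iron not bound to transferrin, split more widely than any member, at 0.85, 1.06 and 219.9 TPM in radiotherapy replicates 1, 2 and 3 against 27.9, 6.07 and 13.2 TPM in controls. Steap3, a reductase of endosomal iron, followed Tfrc, at 4.58, 3.75 and 1.98 TPM in radiotherapy and 3.25, 2.0 and 2.81 TPM in controls. Trf, transferrin itself, was at 23.2, 15.2 and 25.4 TPM in radiotherapy and 17.8, 7.18 and 8.38 TPM in controls, a log2 change of 0.95 (limma unadjusted p = 0.0467, adjusted p = 0.342). Tfr2, the second transferrin receptor, was at most 0.04 TPM in radiotherapy and 0.28 TPM in control libraries and was not tested. Across the 6 uptake genes tested, 0 passed in either direction.

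Slc40a1, ferroportin, the iron exporter, had 0.74, 0.74 and 1.67 TPM in the 3 radiotherapy libraries, each below every control, against 2.09, 2.54 and 2.20 TPM in controls. It averaged 1.05 ± 0.537 TPM in radiotherapy and 2.28 ± 0.235 TPM in control muscle (SD, n = 3 each), and was the least abundant member. The log2 change was -0.70 (SE 0.28, 95% interval -1.38 to -0.03), -0.35 relative to the median of all features, with a limma adjusted p of 0.335. With quantile normalisation the log2 change of Slc40a1 was -0.45 and its groups overlapped, and with a pseudocount of 0.1 it was -1.14. Macrophages, which also carry ferroportin, cannot be separated in whole muscle. The 9 macrophage markers summed to 71.8, 116 and 389 TPM in radiotherapy replicates 1, 2 and 3 and 71.4 to 220 TPM in controls, 0 of 9 passed, none was at 0, and their part in the result was not tested. In radiotherapy replicate 3, Lyz2 (190 TPM), Cd68 (121 TPM) and Csf1r (5.96 TPM) lay above every control. The other markers, Adgre1, Cd163, Mrc1, C1qa, C1qb and C1qc, lay within the control range there. Cp, the ferroxidase ceruloplasmin, which loads exported iron onto transferrin, was at 2.01, 2.51 and 26.4 TPM in radiotherapy and 11.7, 5.04 and 8.17 TPM in controls. Heph, its membrane relative, stayed at or below 0.11 TPM in radiotherapy and 0.28 TPM in control muscle. Hjv, hemojuvelin, a co-receptor made in muscle and liver, was at 174, 159 and 65.5 TPM in radiotherapy and 157, 149 and 131 TPM in controls. The library with the most ferritin thus had the least Hjv.

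The iron sensors were among the lowest members. Ireb2, iron regulatory protein 2, was at 1.2, 1.32 and 2.2 TPM in radiotherapy and 2.82, 1.66 and 3.46 TPM in controls. Radiotherapy replicates 1 and 2 lay below every control, replicate 3 above the lowest one, and the log2 change was -0.49 (SE 0.31, limma adjusted p = 0.456). Aco1, a cytosolic aconitase that becomes iron regulatory protein 1 when it loses its iron-sulphur cluster, was at 2.02, 2.18 and 4.71 TPM in radiotherapy and 4.68, 2.94 and 3.54 TPM in controls. Replicate 3 barely exceeded the highest control and the other radiotherapy libraries lay below the lowest. The log2 change was -0.30 (SE 0.33, limma adjusted p = 0.652), and 0.02 with median-of-ratios scaling. Aco1 exceeded Ireb2 in every library. Fbxl5, the ligase subunit that marks Ireb2 protein for destruction when iron is ample, was at 5.22, 5.15 and 16.2 TPM in radiotherapy and 11.3, 6.39 and 9.93 TPM in controls, the pattern of the ferritins.

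Alas1, 5-aminolevulinate synthase, the rate-limiting first enzyme of haem synthesis outside red cells, was lower in all 3 radiotherapy libraries. It was at 33.9, 27.5 and 22.5 TPM in radiotherapy and 62.5, 49.3 and 38.3 TPM in control muscle. Here radiotherapy replicate 3 was the lowest library, not the highest, and the groups did not overlap. Alas1 averaged 27.9 ± 5.73 TPM in radiotherapy and 50.0 ± 12.1 TPM in control muscle (SD, n = 3 each). Alas1 had a log2 change of -0.81 (SE 0.31, 95% interval -1.53 to -0.09), the lowest of the 10 members, with a limma adjusted p of 0.332. Relative to the median of all features it was -0.45, and 15.2% of features had a lower log2 change. The groups overlapped after median-of-ratios scaling, where the log2 change was -0.39, after rescaling without mitochondrial and the 20 most abundant features, and after quantile normalisation.

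The 17 genes of haem synthesis and mitochondrial iron supply gave 0 calls in either direction. Non-overlapping groups were seen in 6 genes as lower and 1 as higher. Over all features the shares were 19.3% and 1.73%. The list had a median log2 change of -0.36, that of all features. Fech, ferrochelatase, which inserts iron at the last step, was at 36.5, 36.9 and 41.5 TPM in radiotherapy and 68.8, 61.4 and 58.4 TPM in controls, a log2 change of -0.70 (limma unadjusted p = 0.0245, adjusted p = 0.321), and -0.28 with median-of-ratios scaling. Cpox, coproporphyrinogen oxidase, was at 2.24, 2.0 and 3.22 TPM in radiotherapy and 5.79, 4.65 and 4.55 TPM in controls. For both enzymes replicate 3 stayed below every control, as for Alas1. Alad, which catalyses the second step, overlapped, at 27.4 to 39.3 TPM in radiotherapy and 25.2 to 41.2 TPM in controls. Slc25a28, a mitochondrial iron importer, was at 24.2, 19.1 and 63.0 TPM in radiotherapy and 61.3, 79.6 and 43.2 TPM in controls. Its relative Slc25a37 was at 2.01 to 3.74 TPM in radiotherapy and 2.13 to 3.79 TPM in controls.

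Alas2, the erythroid counterpart of Alas1, was higher in all 3 radiotherapy libraries, at 4.25, 4.47 and 4.06 TPM against 0.76, 1.54 and 2.56 TPM in controls. The log2 change was 1.06 (limma unadjusted p = 0.0112, adjusted p = 0.292). The 7 erythroid markers, Alas2 among them, summed to 1307, 1245 and 847 TPM in radiotherapy and 312, 764 and 1396 TPM in controls. Besides Alas2, Hba-a1 was higher without overlap, at 511, 466 and 405 TPM in radiotherapy and 76.1, 294 and 320 TPM in controls. These were 2 of the 5 tested markers, beside 1.73% of all features, and the other tested markers overlapped. Slc4a1, the anion exchanger of red cells, was at most 0.07 TPM in radiotherapy and 0.09 TPM in control libraries, no marker was at 0 in every library, and 0 of the 5 tested passed. The part of blood in the muscle in these levels was not tested.

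**Figure D2:**
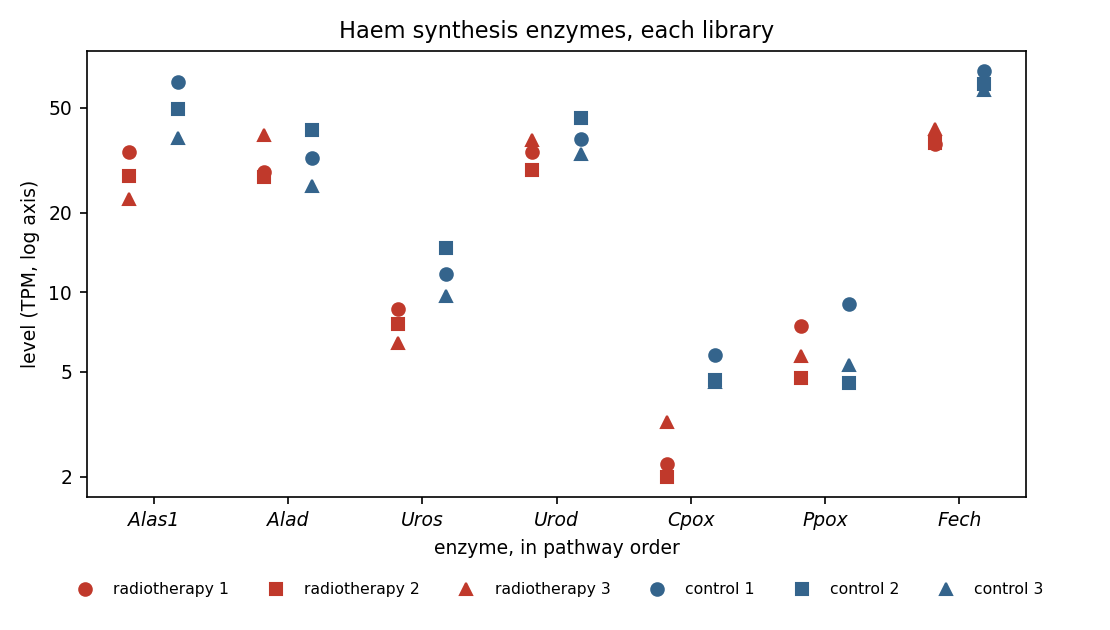
Level in TPM on a log axis of 7 enzymes of haem synthesis in pathway order, radiotherapy libraries left and control libraries right of each position. Alas1, Uros, Cpox and Fech lie below every control in each radiotherapy library, while Alad, Urod and Ppox overlap, with no enzyme past the adjusted threshold.

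Hmox1 had the widest range of the 10 genes, 24.3-fold from the lowest to the highest library. Hmox1, haem oxygenase 1, the stress-inducible enzyme that frees iron from haem, had 2.76, 2.68 and 65.1 TPM in radiotherapy replicates 1, 2 and 3, against 14.5, 9.08 and 13.4 TPM in controls. Replicate 3 stood at 5.28 times the control mean and replicates 1 and 2 at 0.224 and 0.217 times, so no library of the group lay within the control range. The log2 change of -0.43 (SE 1.07, 95% interval -2.97 to 2.10, limma adjusted p = 0.847) averages over these opposite values. Hmox2, the constitutive form, moved less, at 25.6, 21.3 and 63.0 TPM in radiotherapy and 31.3, 35.8 and 24.6 TPM in controls. Hmox1 stood above Alas1 in radiotherapy replicate 3 alone, at 2.90 times, against at most 0.0975 times in the other radiotherapy libraries and 0.184 to 0.35 times in controls.

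Downstream of haem oxygenase, the biliverdin reductases did not separate. Blvra was at 6.25 to 8.67 TPM in radiotherapy and 6.01 to 7.14 TPM in controls, and Blvrb at 9.23 to 11.2 TPM and 9.51 to 11.8 TPM. Of the haem transporters, Slc48a1 was at 16.7, 15.3 and 45.0 TPM in radiotherapy and 27.6, 34.4 and 16.9 TPM in controls, and Flvcr1 at 2.01 to 3.08 TPM and 1.41 to 3.36 TPM. Pgrmc1, a haem-binding membrane protein, was at 5.73, 4.62 and 7.18 TPM in radiotherapy and 8.35, 9.06 and 10.6 TPM in controls (limma unadjusted p = 0.0487, adjusted p = 0.343). In the list of 12 tested genes of haem breakdown and transport, 0 passed in either direction.

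Of the 8 known regulators of Hmox1 and ferritin, 4 had the split of Hmox1, with radiotherapy replicate 3 above every control and replicates 1 and 2 below, a split shown by 19.3% of all features. They were Hif1a, Maff, Mafg and Mafk, named after their values were seen. Mafk, a small Maf protein that pairs with NRF2 or Bach1, was at 4.16, 3.83 and 40.1 TPM in radiotherapy and 21.2, 15.1 and 20.2 TPM in controls. Bach1, a repressor released by haem, was at 1.02, 1.33 and 3.89 TPM in radiotherapy and 5.81, 2.66 and 6.55 TPM in controls. Nfe2l2, which encodes the activator NRF2, was at 7.49, 10.9 and 23.9 TPM in radiotherapy and 30.0, 23.3 and 30.1 TPM in controls, with replicate 3 inside the control range (log2 change -1.07, limma unadjusted p = 0.0385, adjusted p = 0.333). Every one of the 8 regulators and the 6 NRF2 targets listed had a negative log2 change, a background of 78.5%, and 0 passed. Nqo1, a quinone reductase, was lower in all 3, at 6.97, 6.65 and 6.13 TPM in radiotherapy and 10.8, 15.0 and 11.6 TPM in controls (limma adjusted p = 0.294). Slc7a11, a cystine importer, was at 0.36, 0.68 and 1.99 TPM in radiotherapy and 9.11, 7.5 and 2.39 TPM in controls (log2 change -1.80, limma adjusted p = 0.283). Neither was highest in the library with the most Hmox1, whereas 2 of the 6 targets had its split, Gclm and Txnrd1, also named after their values were seen. Gclm, a subunit of the enzyme that starts glutathione synthesis, was at 8.2, 7.62 and 66.5 TPM in radiotherapy and 21.1, 52.9 and 18.9 TPM in controls. Txnrd1, thioredoxin reductase, was at 7.09, 7.61 and 51.4 TPM in radiotherapy and 38.9, 31.9 and 33.5 TPM in controls. The 9 neutrophil markers summed to 11, 18.4 and 2945 TPM in radiotherapy replicates 1, 2 and 3 and 73.6 to 183 TPM in controls. That sum was highest in the library with the most Hmox1, Slc39a14 and ferritin, radiotherapy replicate 3. Most of it there was S100a8 and S100a9, at 1141 and 1574 TPM, whereas Elane was at 0.24 TPM. Of the defining markers, Ly6g had 2.23 TPM in radiotherapy replicate 3 and was listed at 0 in replicates 1 and 2, Elane was listed at 0 in every control, no marker was at 0 in every library, and 0 of the 5 tested passed. The part of neutrophils and macrophages in the levels of replicate 3 was not tested.

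Mb, myoglobin, the oxygen-binding haem protein of oxidative fibres, was at 2464, 2228 and 564 TPM in radiotherapy and 1067, 503 and 2202 TPM in controls. It was the second most abundant member, ranking 70th of all tested features. It ranged from 564 to 2464 TPM in radiotherapy and from 503 to 2202 TPM in control libraries. Mb had a log2 change of 0.46 (SE 0.72, limma adjusted p = 0.752). The 9 markers of slow and oxidative fibres summed to 1309, 2272 and 337 TPM in radiotherapy and 1383, 140 and 1825 TPM in controls, with the low values in the same 2 libraries, radiotherapy replicate 3 and control replicate 2. Of these markers 0 of 9 passed and none was at 0 in any library. The part of fibre type, or of the portion of muscle sampled, in the level of Mb was not tested. Cygb, the related globin cytoglobin, was at 8.22, 7.93 and 4.38 TPM in radiotherapy and 5.78, 4.62 and 4.99 TPM in controls.

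**Figure D3:**
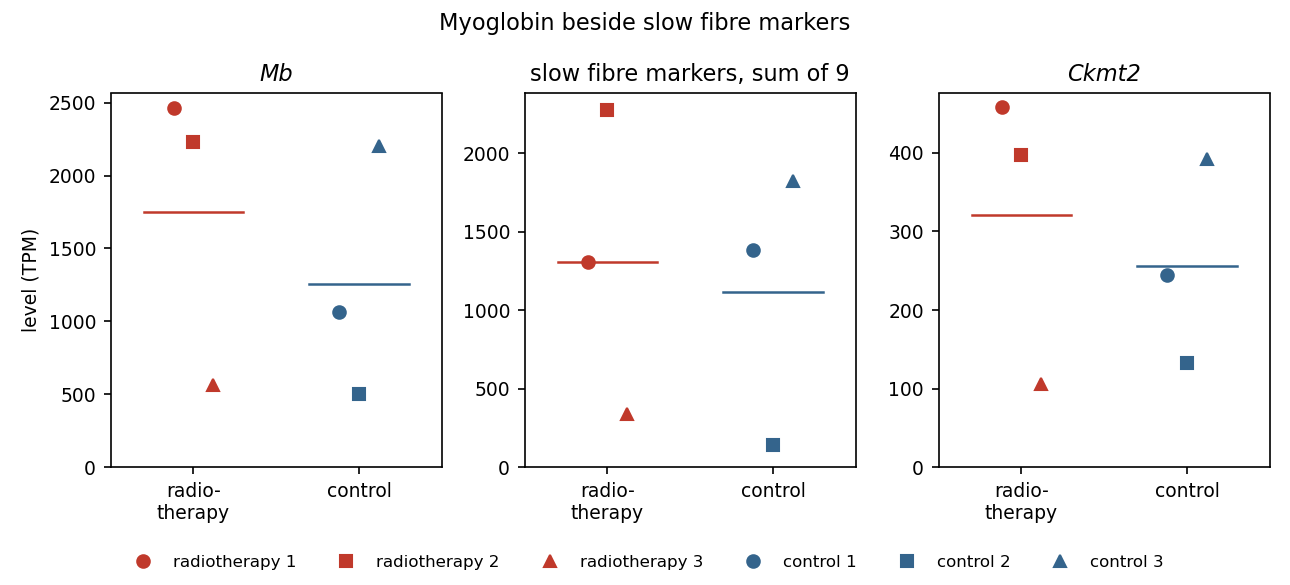
Level in TPM of Mb, of the sum of 9 slow fibre markers and of Ckmt2 (mitochondrial creatine kinase) in each library, radiotherapy left and control right, with a line at the group mean. Radiotherapy replicate 3 and control replicate 2 are the lowest libraries in each panel.

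Iron-sulphur cluster assembly, which draws on the same iron, gave 0 calls among 17 genes, with 4 not overlapping as lower and 0 as higher, where all features gave 19.3% and 1.73%. Isca1, a scaffold protein, was at 69.1, 69.7 and 63.0 TPM in radiotherapy and 114, 89.5 and 111 TPM in controls (log2 change -0.62, limma unadjusted p = 0.042, adjusted p = 0.335), and -0.20 with median-of-ratios scaling. Iscu, the main scaffold, was at 139 to 193 TPM in radiotherapy and 155 to 261 TPM in controls. In the pathway list as a whole, chosen for function, 81 of 94 genes were tested and 0 passed. An unadjusted p under 0.05 was reached by 10 as lower and 2 as higher, where all features gave 13.3% and 1.18%. Groups stood clear of each other for 16 as lower and 1 as higher, beside 19.3% and 1.73%, shares near the background. The list had a median log2 change of -0.31, beside -0.36 over all features.

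The split within the radiotherapy group did not run alike in all members. With radiotherapy replicate 3 above all controls and replicates 1 and 2 below all of them, a description made after the values were seen, stood 5 of the 10: Fth1, Ftl1, Slc11a2, Aco1 and Hmox1. The same held for 19.3% of all features. The mirror image was shown by 1 of 10, Tfrc, beside 2.65% of all features. Alas1 and Slc40a1 were low in all 3 radiotherapy libraries, and Ireb2 and Mb overlapped the controls through replicate 3. When radiotherapy replicate 3 was left out, the members past the threshold were 3 as lower and 0 as higher. They were Hmox1 (log2 change -1.82, limma adjusted p = 0.0125), Ftl1 (-1.05, 0.0309) and Slc40a1 (-0.91, 0.0243), beside 27.6% of all features lower and 1.98% higher. Fth1 then stood at -0.65 (limma adjusted p = 0.0634) and Tfrc at 0.94 (0.07). In that setting 28 of 81 tested pathway genes passed as lower and 0 as higher, beside the same 27.6% and 1.98% of all features. The 28 include those 3 members, and Ncoa4, Slc39a14 and Nfe2l2 are among the rest.

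**Figure D4:**
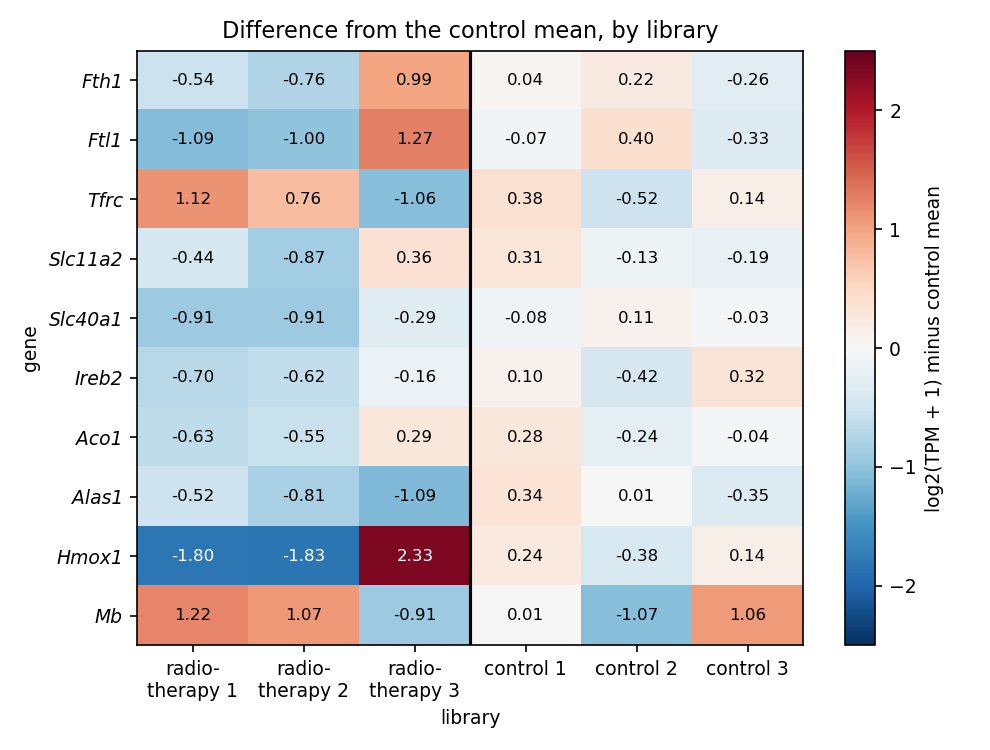
Difference of log2(TPM + 1) from the control mean for each gene (rows) in each library (columns), red higher and blue lower. Radiotherapy replicate 3 has the opposite sign to replicates 1 and 2 for Fth1, Ftl1, Tfrc, Slc11a2, Aco1, Hmox1 and Mb, and the same sign for Slc40a1, Ireb2 and Alas1.

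Of 5 ratios between members, tested over the 6 libraries by exact permutation, none reached 0.05, with adjusted p-values from 0.833 to 1. With 3 libraries per group the smallest exact p is 0.1, so no ratio could have passed 0.05, and the test says nothing about stability. The largest difference was in Slc40a1 relative to Tfrc, at -4.06, -3.67 and -0.22 on the log2 scale in radiotherapy replicates 1, 2 and 3 and -1.74, -0.36 and -1.39 in controls. Its group means differed by -1.49 (exact permutation p = 0.4, n = 3 per group). The ratio of Slc40a1 to Tfrc message was thus below every control in radiotherapy replicates 1 and 2 only. Slc40a1 was at 0.74 TPM in both, and with a pseudocount of 1 the difference of group means was -0.98. Iron export and uptake themselves were not measured.

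**Figure D5:**
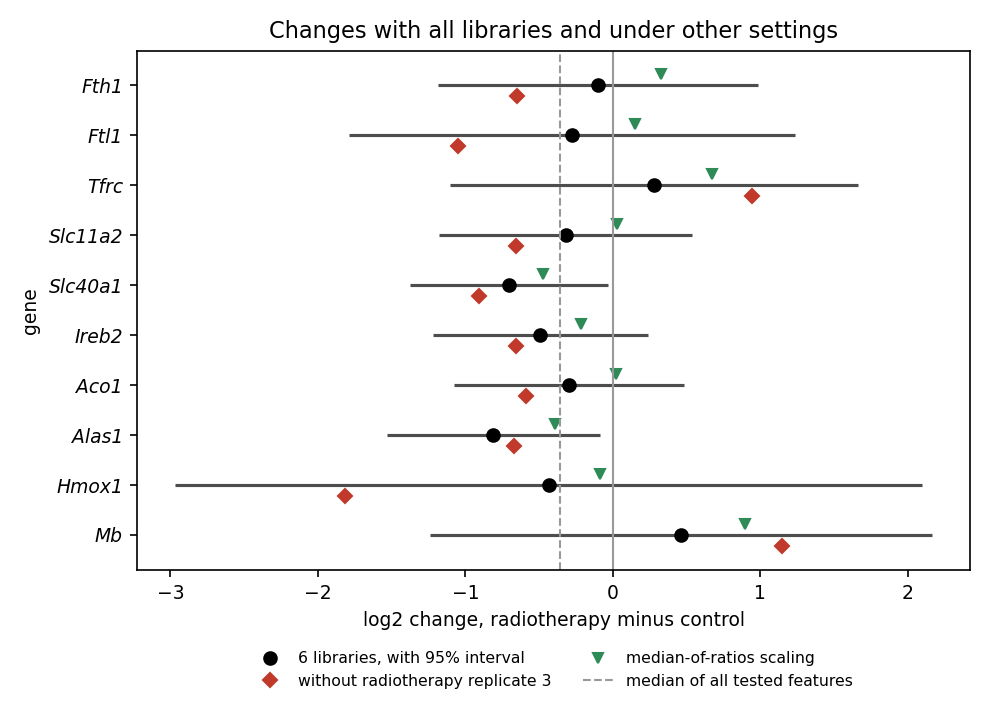
Log2 change, radiotherapy minus control, of each gene with its 95% interval (black), without radiotherapy replicate 3 (red diamonds) and with median-of-ratios scaling (green triangles), the dashed line marking the median of all tested features. The intervals of Slc40a1 and Alas1 lie below 0, at -0.03 and -0.09 at their upper ends, and those of the other 8 genes span 0.

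By mean level per transcript length (TPM), the order in radiotherapy muscle was Fth1, Mb, Ftl1, Alas1, Hmox1, Tfrc, Slc11a2, Aco1, Ireb2 and Slc40a1. The place of Hmox1 there rests on replicate 3, since in replicates 1 and 2 it lay below Tfrc and Slc11a2. In control muscle it was Fth1, Mb, Ftl1, Alas1, Hmox1, Slc11a2, Tfrc, Aco1, Ireb2 and Slc40a1. The ranges of neighbours overlapped between Mb and Ftl1 in both groups, and from Slc11a2 or Tfrc downward each gene overlapped the next. Alas1 and Hmox1, and Hmox1 and Tfrc, overlapped in radiotherapy only.

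The genes whose centred log2 levels were nearest to those of 4 members over the 6 libraries were found among 6296 named genes with a mean of at least 5 TPM. Nearest to Fth1 were Cdk9, a transcription elongation kinase, Ptma, prothymosin alpha, and Tatdn2, at root mean square differences of 0.05, 0.07 and 0.07. Cdk9 was at 15.4, 14.1 and 46.4 TPM in radiotherapy and 24.1, 25.5 and 20.01 TPM in controls. Nearest to Tfrc were Phkg1, the muscle phosphorylase kinase subunit, Trp53inp2 and Gstt2, at 0.14, 0.17 and 0.18. Phkg1 was at 180, 138 and 50.2 TPM in radiotherapy and 114, 59.8 and 87.4 TPM in controls. Nearest to Hmox1 were Sat1, the enzyme that acetylates spermidine, at 0.18, then Arid5a and Fgl2, both at 0.22. Arid5a was at 2.68, 2.43 and 83.4 TPM in radiotherapy and 16.6, 10.5 and 10.6 TPM in controls. Nearest to Mb was Ckmt2, mitochondrial creatine kinase, at 0.21, followed by Per3 and Eml6 at 0.33 and 0.34. Ckmt2 was at 458, 398 and 106 TPM in radiotherapy and 244, 133 and 391.6 TPM in controls.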

How the data were processed

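The authors deposited 1 table of TPM per gene, scaled for transcript length and library size. A TruSeq kit was used on total RNA, per the labels' protocols. HISAT2, StringTie and RSEM are named, with no version or role, and build mm9, per the submitters' processing notes. Its annotation release is not stated there. No counts were used, so no count test was made. The TPM table gives no depth, and precision rests on 3 libraries per group.

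The 11938 features averaging 1 TPM or more were tested as log2(TPM + 1) with limma 3.58.1 in R 4.3.3 (empirical Bayes with a trend, two-sided, no covariates), with Benjamini-Hochberg adjustment over all of them and a threshold of 0.05. Fold changes on this scale understate the change of low genes. All 10 members passed the filter. The test was checked on simulated data, where recovery was required only of large changes at a spread smaller than in these data. That check does not show what the test recovers at the observed spread. Members, lists and the rule for named genes were chosen with earlier results of these data known. Named were the 10 members, a panel of pathway genes (some of which are not reported here), up to 2 further genes per list with the smallest p if under 0.05, and the 3 genes nearest in pattern to 4 members. The limit of 0.05 was added after the values were seen. So were the markers Ly6g, S100a8, S100a9 and Hba-a1, the other haem enzymes plotted, Bola3 and the regulators and targets with the split of Hmox1. Libraries were treated as unpaired, since the labels give only replicate numbers. Same-numbered libraries had deviations correlated at -0.045, -0.112 and -0.201, which with so few libraries cannot decide whether they were paired. Other settings tried were a pseudocount of 0.1 or 0.5, a 5 TPM minimum, no filter, 3 other scalings, no trend, robust empirical Bayes, the replicate block and leaving out each library. Elements were found in GENCODE M21 transcripts with Python 3.11.15, and figures drawn with matplotlib 3.10.9.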

Additional observations from a re-analysis of the deposited data

How the results depend on the processing

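With 3 libraries per group and no depth, small differences could not be resolved, and the cause of the shifts below was not tested except where fewer libraries or features entered. No member passed under any setting with all 6 libraries. Log2 changes that turned positive with median-of-ratios scaling, which moved the median of all features from -0.36 to -0.02, were Fth1 0.33, Ftl1 0.15, Slc11a2 0.027, Aco1 0.018, Hjv 0.18, Fbxl5 0.18, Alad 0.38, Slc25a37 0.29, Blvrb 0.39, Flvcr1 0.31, Slc48a1 0.26 and Iscu 0.14. With quantile normalisation they were Slc11a2 0.029, Aco1 0.0049, Hjv 0.10, Fbxl5 0.18, Alad 0.36, Slc25a37 0.29, Blvrb 0.42, Flvcr1 0.33, Slc48a1 0.25 and Iscu 0.10, and the log2 ratio of Fth1 to Ftl1 turned to -0.014. When rescaled without mitochondrial and the 20 most abundant features they were Fth1 0.10, Alad 0.16, Slc25a37 0.14, Blvrb 0.19, Flvcr1 0.17 and Slc48a1 0.047. Without a change of sign, median-of-ratios scaling also moved Cpox to -0.46, Pgrmc1 to -0.23, Nqo1 to -0.43 and Nfe2l2 to -0.67. Flvcr1 was 0.017 with a pseudocount of 0.1 and 0.0052 with 0.5. Leaving out 1 library at a time, log2 changes that crossed 0 ranged from -0.65 to 0.23 for Fth1, -1.05 to 0.13 for Ftl1, -0.15 to 0.94 for Tfrc, -1.82 to 0.27 for Hmox1, -0.072 to 1.15 for Mb, -2.87 to 0.58 for Slc39a14, -1.45 to 0.14 for Cp, -0.50 to 0.20 for Hjv, -0.69 to 0.053 for Fbxl5, -0.21 to 0.13 for Alad, -0.36 to 0.40 for Hmox2, -0.056 to 0.15 for Blvra, -0.065 to 0.076 for Blvrb, -0.26 to 0.17 for Flvcr1, -0.63 to 0.12 for Slc48a1 and -0.19 to 0.14 for Slc25a37. The log2 ratios ranged from -0.36 to 1.73 for Tfrc to Fth1, -0.016 to 0.40 for Fth1 to Ftl1 and -1.47 to 1.11 for Hmox1 to Alas1. Over the same settings, members called lower ranged from 0 to 3 and pathway genes called lower from 0 to 28. Members not overlapping ranged from 0 to 2 as higher and 2 to 8 as lower. All features called ranged from 0 to 236 as higher and 0 to 3298 as lower. Each maximum came without radiotherapy replicate 3. In that setting 58.8% of all features did not overlap as lower and 6.17% as higher. Members not overlapping as lower were 1 with median-of-ratios scaling, 1 when rescaled and 0 with quantile normalisation. The shares of all features were 9.95%, 16.5% and 11% in the same order. At a mean of at least 5 TPM, 1 member did not overlap as lower. That alternative was chosen after seeing the data and leaves 7 members, and no share over all features was taken for it. Against 5 features called higher and 2 lower over the whole table, 5 were lower with a pseudocount of 0.1, 1 lower at 5 TPM, 0 either way without a filter, 3 higher and 1 lower with median-of-ratios scaling and with quantile normalisation, and 4 lower when rescaled. With the replicate block 0 members, 4 features higher and 0 lower passed. The labels do not say that replicate numbers pair the libraries, and the block changed no member's call.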
